A study of Rattus norvegicus with 12 samples.

Results

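Cytochrome P450 enzymes (Cyp) oxidise drugs, fatty acids, sterols and steroids, and conjugating enzymes join the products or their substrates to glutathione (Gst), glucuronic acid (Ugt) or sulfate (Sult). The mRNA levels of both groups were followed in rat hepatic progenitor cells (HPCs), immature liver cells that can form hepatocytes and bile duct cells. Members were the lines of the deposited table whose symbol is Cyp with a digit, Ugt1 or Ugt2, Gst with a letter, or Sult with a digit, leaving out Cyp51, and whose level was at least 1 in at least 1 library. Levels are log2(FPKM + 1), where FPKM is the number of fragments scaled for transcript length and for the sequenced total. There were 22730 lines in all, 114 of them with such a symbol, and 55 of these reached the minimum: 31 of 75 Cyp lines, 18 of 22 Gst lines, 4 of 6 Ugt lines and 2 of 11 Sult lines. The rule used no difference between groups. Cyp2c24, with a highest level of 1.03, lay just inside the minimum, and Sult2b1, with 0.81, lay just outside. The 55 lines carry 53 symbols, because Cyp4f37 has 3 lines.

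The 12 libraries form 6 groups of 2. Wild-type, Tnfrsf1α-/- and Tnfrsf1β-/- rat HPCs of gestation day 13.5 were each left untreated or exposed for 1 hour to TNFα, the cytokine tumour necrosis factor alpha, and no other agent or allele is named for any group. The 2 knockout names refer to the genes of the TNF receptors TNFR1 and TNFR2. Whether the 2 libraries of a pair are from different cultures or animals is not given in the sources used here, so the p-values speak of the spread within these pairs alone, and it may be technical. How the knockout cells were made is likewise not given.

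P450 enzymes are haem proteins that insert an oxygen atom into their substrate with electrons passed on by the reductase Por or, in mitochondria, by the ferredoxin Fdx1. Conjugation then makes the product more soluble, and membrane transporters carry it out of the cell. In the adult liver the hepatocyte is the main site of these enzymes, and many of them are switched on late in development or by nuclear receptors that sense foreign compounds and bile acids. Gstp1 is the exception best known in the rat: bile duct cells and early liver tumours have much of it, and adult hepatocytes have little.

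The stretches before the transcription start of 7 members show what kinds of start regions the results concern. They come from RefSeq on the rat assembly GRCr8, which need not be the build behind the deposited table, and are written 5′ to 3′ along the gene. Of the 53 symbols 45 have an entry there, with 48 start sites in all. Capitals mark letters that match a motif on either strand. The TATA box was searched as TATAAA. The second motif searched, a common binding site of general promoter factors, was CCAAT. For the antioxidant response element, through which Nfe2l2 acts, the core TGACNNNGC was used. For the dioxin response element, through which Ahr acts, it was GCGTG. Of the 4 whole stretches of 150 bases, the first 3 belong to genes at 1 or more only in treated wild type, and the last to a P450 gene that was lowest there.
Cyp2d1, chr7:115793431-115793580, minus strand: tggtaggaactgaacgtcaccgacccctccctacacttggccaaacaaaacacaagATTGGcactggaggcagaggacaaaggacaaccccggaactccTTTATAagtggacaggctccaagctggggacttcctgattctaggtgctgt
Cyp8b1, chr8:130457593-130457742, minus strand: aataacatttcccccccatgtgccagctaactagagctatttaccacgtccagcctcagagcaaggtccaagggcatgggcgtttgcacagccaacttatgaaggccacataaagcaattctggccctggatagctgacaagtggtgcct
Sult1b1, chr14:20771767-20771916, plus strand: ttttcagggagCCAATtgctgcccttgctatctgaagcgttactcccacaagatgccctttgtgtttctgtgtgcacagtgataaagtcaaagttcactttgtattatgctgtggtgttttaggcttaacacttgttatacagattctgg
Cyp2s1, chr1:90453074-90453223, minus strand: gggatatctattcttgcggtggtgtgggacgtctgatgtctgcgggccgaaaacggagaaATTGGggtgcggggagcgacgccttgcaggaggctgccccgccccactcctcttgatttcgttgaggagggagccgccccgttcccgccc
For 3 more genes a piece of 30 bases around one match is shown, because Gsta2 was high only in treated wild type, Gstp1 had the highest level of all members and Cyp1b1 fell most with TNFα in wild type.
Gsta2, chr8:88077100-88077129, minus strand: cagtattaaagtgGCGTGCACGCtcctctg
Gstp1, chr1:210769748-210769777, minus strand: ctccactgtgtTGACTCAGCatccggggcg
Cyp1b1, chr6:21094532-21094561, plus strand: gagtagagggatgGCGTGtcgcctctgggg
In the 250 bases before the start, TATAAA was found in 7 of the 48 member regions and in 12.9% of all 33469 regions of that length, and CCAAT in 26 of 48 and in 34.0%. TGACNNNGC was found in 9 of 48 and in 10.1%, and GCGTG in 16 of 48 and in 25.9%. Among the 23 regions of genes at 1 or more only in treated wild type, the 4 motifs were found in 4, 11, 2 and 5. These are matches of letters and were not tested.

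Several libraries stood apart before any member was considered. Tnfrsf1a, the gene for TNFR1, had levels of 5.45 and 5.15 in untreated wild type, and the untreated pair labelled Tnfrsf1α-/- had 5.94 and 6.13. It was therefore not lower under its own knockout label, and directions drawn from these libraries rest on the label. Tnfrsf1b, the gene for TNFR2, stood at 0 under the label Tnfrsf1β-/- in 4 of 4 libraries, but untreated wild type had 0 in both as well. The 2 libraries labelled Tnfrsf1α-/- with TNFα were unlike each other (Spearman's rho 0.782 across the tested lines, against 0.961 to 0.996 in the other 5 pairs), and 1231 of 11860 tested lines lay over 2 log2 units apart. Total FPKM was 447554 to 472935 in the 4 untreated libraries with a knockout label and 1071530 to 2085916 in the other 8.

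Hepatocyte markers separated the treated wild-type libraries from the rest. The summed FPKM of 11 of them was 4460 to 4620 in wild type with TNFα and at most 1.1 in any other library, and the 9 that passed the filter for testing, Alb, Ttr and Hnf4a among them, did so through that pair. Tdo2, a defining enzyme of mature hepatocytes, was at 0 in both treated wild-type libraries. Progenitor and bile duct markers also differed: 8 of 10 tested rose with TNFα in wild type, when 31.9% of all tested lines rose. Of these Epcam, Afp, Krt18, Krt19 and Cd24 were listed at 0 in untreated wild type and passed the filter only through the treated pair. Other markers of that list were on before treatment: Krt7 was at 13.80 and 13.50 in untreated wild type, Krt8 at 8.57 and 8.61 and Sox9 at 5.21 and 5.78. In the untreated libraries with a knockout label Krt7 was at 7.64 to 7.99 and Sox9 at 0.02 to 0.31. Both genes rose with TNFα under each knockout label too. Of the mesenchymal and stellate cell markers 6 of 7 tested fell, when 15.3% of all tested lines fell, and 1, Tagln, rose. Their median level was 0.15 to 0.49 in treated wild type against 4.7 to 8.1 in the other 10 libraries, with Lrat and Thy1 at 0 everywhere. Endothelial markers summed to at most 4.26 FPKM, macrophage and leukocyte markers to at most 49.8 and erythroid markers to at most 3.22 in any library. In such bulk libraries, more cells of a type and more RNA per cell cannot be told apart, and the part of these markers in the results below was not tested.

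With TNFα more members were at 1 or more in wild-type cells than in any other group. Of the 55 members 47 and 45 were at 1 or more in the 2 treated wild-type libraries, against 17 to 23 in each of the other 10. The rule for members uses the same minimum, and 24 of the 55 reached it only in a treated wild-type library. They are members through that pair alone, so these counts are partly set by the rule and describe the 55. Both treated wild-type libraries lay above all other 10 for 36 members, 23 of them among the 36 members that passed the filter for testing given below, and 24.6% of all tested lines did so. They lay below all others for 5, 4 of them tested, as 15.4% of all tested lines did. For 23 members, 15 of them tested, the level was at least 1 in both treated wild-type libraries and below 1 in the other 10, a pattern that 2.9% of all tested lines had. These shares are of tested lines and are no measure for all 55 members. Of the 55 members 12 were listed at 0 in all other 10 libraries. Another 13 were at 1 or more in all 12 libraries: Cyp20a1, Gstcd, Gstp1, Gsto1, Gsta1, Gsta4, Gstm1, Gstm4, Gstm7, Gstt1, Gstz1, Ugt1a5 and Cyp2u1.

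**Figure D1:**
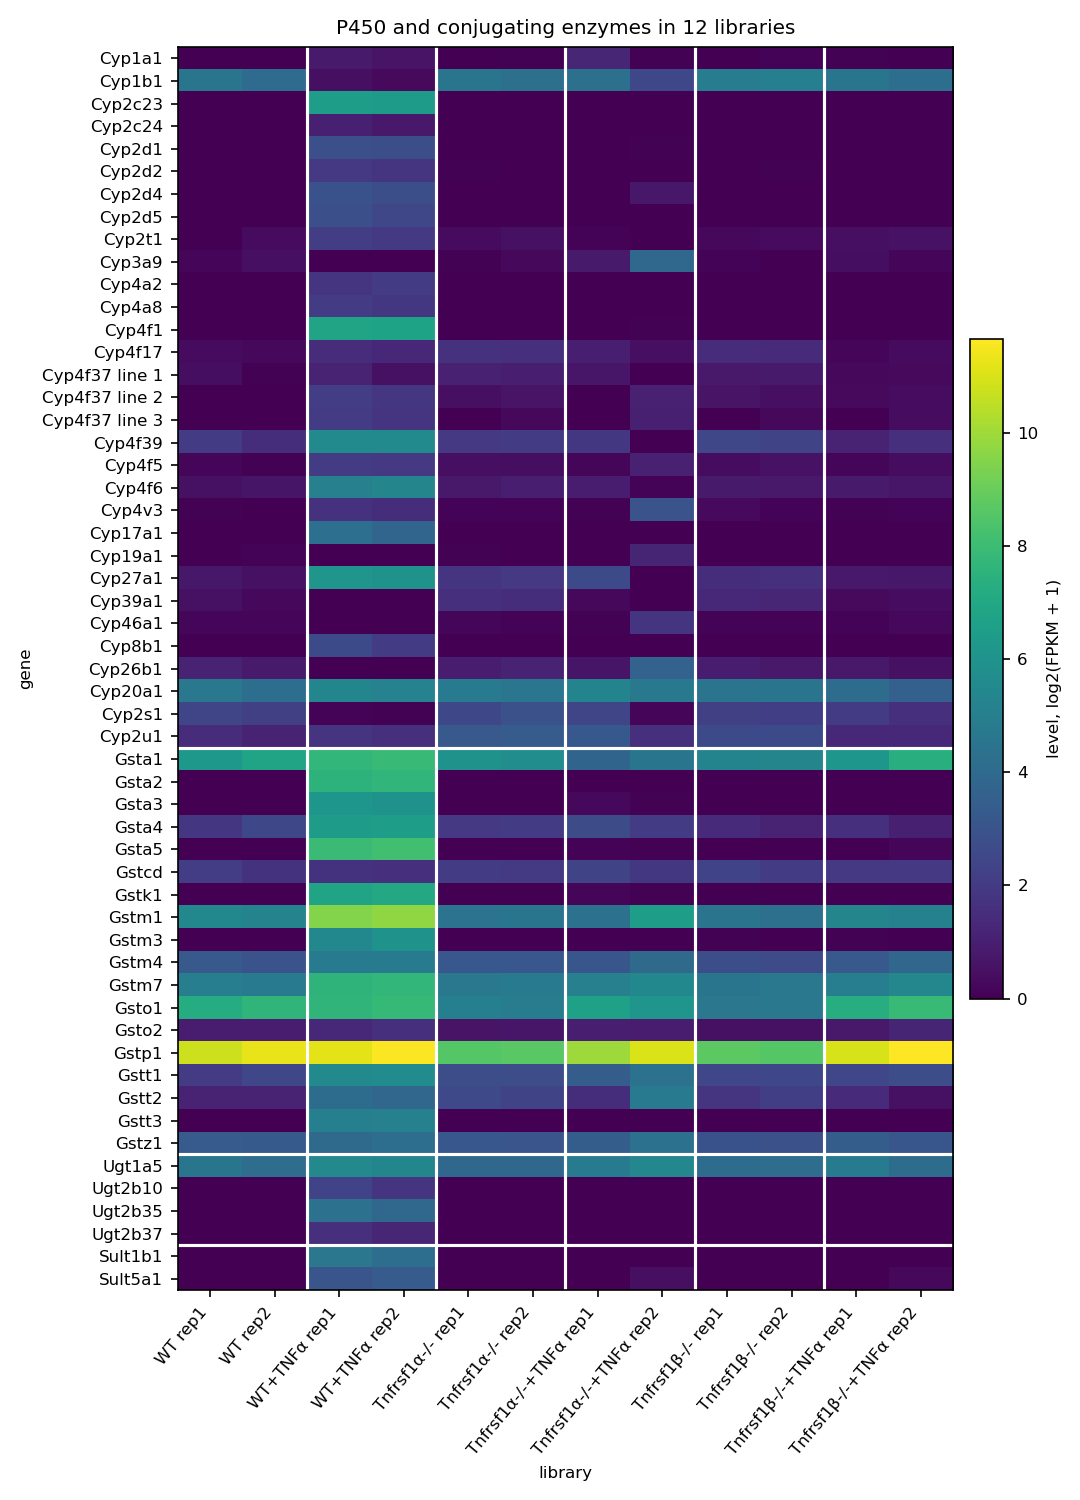
Level, log2(FPKM + 1), of each of the 55 members (vertical axis, Cyp, Gst, Ugt and Sult separated by white lines) in each of 12 libraries (horizontal axis, 6 groups of 2 separated by white lines). The columns of wild type with TNFα show colour in many genes that are dark elsewhere, and Gstp1 is bright in all 12.

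By summed FPKM the glutathione transferases made up most of the signal. All members together summed to 2180 and 2930 FPKM in untreated wild type, 5140 and 6100 with TNFα, 646 and 665 in the untreated pair labelled Tnfrsf1α-/-, 1310 and 2460 there with TNFα, 644 and 613 in those labelled Tnfrsf1β-/-, and 2400 and 3810 there with TNFα. Gstp1 alone was 81.2% and 84.3% of the sum in untreated wild type and 45.9% and 50.4% with TNFα. Without Gstp1 the Gst genes summed to 326 and 400 FPKM in untreated wild type and to 2210 and 2510 with TNFα, and no library elsewhere exceeded 503. As a share of total FPKM the members made up 0.203% and 0.238% in untreated wild type, 0.262% and 0.292% with TNFα, 0.138% and 0.141% in the untreated pair labelled Tnfrsf1α-/- and 0.142% and 0.137% in that labelled Tnfrsf1β-/-. With TNFα the share was 0.0997% and 0.168% under the first label and 0.223% and 0.324% under the second, where 1 library was the highest of all 12. The wild-type groups thus lay closer together as shares than as sums. The Cyp genes summed to 60 and 43.3 FPKM in untreated wild type, 461 and 434 with TNFα and 38.5 to 82.5 in the other libraries.

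**Figure D2:**
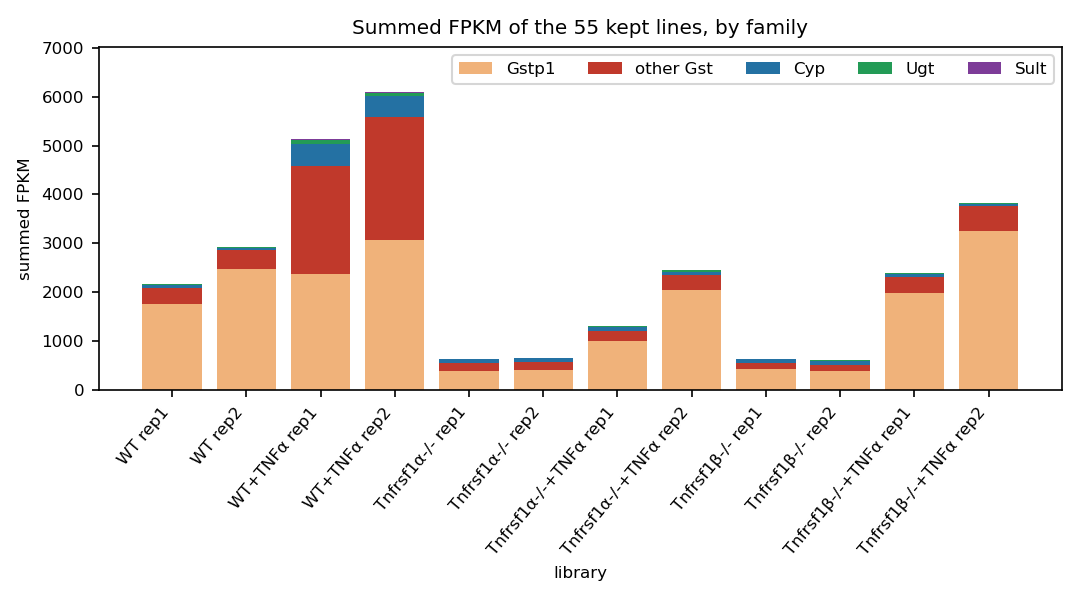
Summed FPKM of the 55 members in each library, stacked by Gstp1, the other Gst genes, Cyp, Ugt and Sult. The 2 wild-type libraries with TNFα reach 5140 and 6100, of which Gst genes other than Gstp1 make up 2210 and 2510, against at most 503 in the other 10 libraries.

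TNFα in wild type gave 29 calls. Of the 36 members that passed the filter on low values (mean FPKM of at least 1), 27 rose and 2 fell by limma at an adjusted p under 0.05, when 31.9% of all tested lines rose, 15.3% fell and 47.2% were called in either direction. By role 3 of 5 drug-metabolising P450 genes rose and 1 fell, 4 of 4 Cyp4 genes rose, as did 13 of 17 Gst genes, 2 of 2 Ugt and 2 of 2 Sult genes. The median log2 difference over the 36 was 3.05 and over all tested lines 0.32. Of all lines called 67.6% were higher, against 49.3% with median-ratio scaling of the libraries (24 members rose and 3 fell) and 45.6% with quantile normalization (22 rose and 3 fell). Of the 36 tested members 14 were listed at 0 in both untreated wild-type libraries and below 1 in every library with a knockout label. These 14 passed the filter only through the treated wild-type pair and had to differ there, so the counts and the median describe the 36, and for these genes levels are given with no difference and no test. Of the other 22 members 13 rose and 2 fell. Cyp4f6, among the 13, was below 1 in the other 10 libraries and likewise passed the filter only through the treated pair.

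Among the P450 genes of drugs and other foreign compounds, Cyp2c23, an epoxygenase of arachidonic acid, was at 6.52 and 6.45 in treated wild type and listed at 0 in the other 10 libraries. Cyp2d1, a drug oxidase of the rat, was at 2.87 and 2.82 there and at most 0.07 elsewhere. Cyp2d4 was at 2.94 and 2.80, with 0 and 0.74 in the libraries labelled Tnfrsf1α-/- with TNFα and 0 in all others. All 3 genes passed the filter only through the treated wild-type pair, so its lack of overlap with any other library is a description. Cyp2d2, Cyp2d5, Cyp2t1 and Cyp2c24, below the filter for testing, had their highest levels, 1.03 to 2.85, in the same pair. Counting may split reads between the near-identical Cyp2d genes, so their single levels are uncertain.

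Cyp1b1, which oxidises polycyclic hydrocarbons and oestrogens and is known from mesenchymal more than from hepatic cells, went the other way. Its level was 4.55 and 4.06 in untreated wild type and 0.47 and 0.29 with TNFα, 4.53 and 4.30 in the untreated pair labelled Tnfrsf1α-/- and 4.29 and 2.52 there with TNFα. Under the label Tnfrsf1β-/- it was 4.95 and 5.05 untreated and 4.55 and 4.21 with TNFα. The treated wild-type pair was the lowest of all and did not overlap the others. Cyp1b1 fell with TNFα in wild type (log2 difference -3.92, SE 0.49, limma adjusted p = 0.000263). The median level of the mesenchymal marker list above was lowest in the same pair. The summed FPKM of that list, 1950 to 2880 there, overlapped the 2540 to 3780 of the treated pair labelled Tnfrsf1β-/-. Tagln, of the same list, was highest in treated wild type, at 10.73 and 11.37. Ahr, the receptor for dioxin-like compounds and a known activator of Cyp1 genes, was at 3.11 and 2.58 in untreated wild type and at 0 with TNFα. It was at 5.80 and 5.66 in the untreated pair labelled Tnfrsf1α-/- and at 2.76 and 2.56 in the treated pair labelled Tnfrsf1β-/-. Its part in the level of Cyp1b1 was not tested. Cyp1a1, another Cyp1 gene and below the filter for testing, was at 0.84 and 0.63 in treated wild type. It reached 1.23 in 1 treated library labelled Tnfrsf1α-/-.

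Many P450 genes by which an adult rat liver is recognised were at or near 0. Cyp1a2, the 5 Cyp2b lines, Cyp3a2 and Cyp3a18 were listed at 0 in all 12 libraries. The highest level in any library was 0.02 for Cyp2e1, 0.06 for Cyp3a23/3a1 and 0.38 for Cyp2c11. Of the Cyp3a genes only a line of Cyp3a9 reached the minimum, at 0.85 and 3.94 in the libraries labelled Tnfrsf1α-/- with TNFα and no more than 0.46 elsewhere. None of its contrasts passed with a pseudocount of 1 and all 12 libraries (limma adjusted p = 0.0744 for TNFα under that label). With a pseudocount of 0.1 that difference passed (4.08 on that scale, 0.0448), as did its response minus that of wild type (5.69, 0.0247). Without both treated libraries of that label the wild-type difference passed (-0.31, 0.038). With only the groups compared, the Tnfrsf1β-/- response minus wild type passed (0.56, 0.016). Another line of Cyp3a9, below the minimum, was at 0 in both treated libraries labelled Tnfrsf1α-/- and had its highest level, 0.20, in a treated wild-type library.

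The Cyp4 family, which oxidises the far end of fatty acid chains and inactivates leukotrienes, had 11 of its 18 lines kept. Cyp4f1 was at 6.81 and 6.75 in treated wild type and at most 0.05 elsewhere. Cyp4f6 was at 0.54 and 0.66 in untreated wild type and 5.09 and 5.30 with TNFα, and between 0.11 and 0.98 in the 8 libraries with a knockout label. It passed the filter only through the treated wild-type pair, so its levels are given with no test. Cyp4f39, known from the handling of very long fatty acids in skin, was at 2.03 and 1.54 in untreated and 5.54 and 5.56 in treated wild type (log2 difference 3.76, SE 0.52, limma adjusted p = 0.0005). Cyp4f17 rose less, from 0.35 and 0.26 to 1.46 and 1.33 (log2 difference 1.09, SE 0.18, limma adjusted p = 0.00121). The Cyp4f1, Cyp4f6 and Cyp4f39 levels of treated wild type lay above every other library, a pattern that 24.6% of all tested lines had. Cyp4f1, like Cyp4f6, passed the filter only through that pair. Cyp4f17 was as high or higher in the untreated libraries with a knockout label. Below the filter for testing, Cyp4a2, Cyp4a8, Cyp4f5 and all 3 Cyp4f37 lines had their highest level, 1.13 to 2.12, in a treated wild-type library, and Cyp4v3 had its highest, 2.99, in 1 treated library labelled Tnfrsf1α-/-.

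Of the P450 genes of sterols and steroids, Cyp27a1, the mitochondrial enzyme that oxidises the side chain of cholesterol in bile acid synthesis, was at 0.76 and 0.54 in untreated wild type and 6.07 and 5.95 with TNFα (log2 difference 5.36, SE 0.66, limma adjusted p = 0.000241). It was at 1.77 and 1.92 in the untreated pair labelled Tnfrsf1α-/- and at 1.51 and 1.62 in that labelled Tnfrsf1β-/-. Cyp8b1, which determines how much cholic acid is made, was at 2.61 and 2.06 in treated wild type and listed at 0 elsewhere, while Cyp7a1, the rate-limiting enzyme of bile acid synthesis, never exceeded 0.07. Treated wild type was thus the one group with both Cyp27a1 and Cyp8b1 above 1, and Cyp7a1 was near 0 there too. Cyp17a1, which makes androgens from progestagens and is best known from adrenal and gonad, was at 4.28 and 3.81 in treated wild type and at 0 in the other 10 libraries. Cyp11a1, the enzyme that starts steroid synthesis, stayed at or below 0.21 in every library. A list of 4 measured adrenal and gonadal genes summed to 42.0 and 46.1 FPKM in treated wild type and to at most 0.993 elsewhere. The sum there came mostly from Cyp17a1 and Nr5a1, which passed the filter only through that pair. Star, of the same list, went the other way. It was at 0.29 and 0.42 in treated wild type and at 0.79 to 0.93 in the untreated libraries with a knockout label. Cyp39a1, an oxysterol hydroxylase, was at 1.61 and 1.53 in the untreated pair labelled Tnfrsf1α-/-, at 1.34 and 1.24 in that labelled Tnfrsf1β-/-, at or below 0.51 in the other untreated and treated libraries and at 0 in treated wild type.

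The remaining P450 genes are those with wide or unknown roles. Cyp2s1, a P450 of epithelia outside the liver, was at 2.45 and 2.20 in untreated wild type and 0.13 and 0.07 with TNFα, and fell (log2 difference -2.22, SE 0.58, limma adjusted p = 0.0135); 1 library labelled Tnfrsf1α-/- with TNFα was as low, at 0.19, and the other was at 2.42. Cyp20a1, whose substrate is unknown, rose slightly, from 4.67 and 4.24 to 5.35 and 5.19 (log2 difference 0.82, SE 0.27, limma adjusted p = 0.036). Cyp26b1, which clears retinoic acid, was at 1.17 and 0.82 in untreated wild type and 0.02 and 0.01 with TNFα, and this difference did not pass (log2 difference -0.98, SE 0.74, limma adjusted p = 0.304). Its 2 libraries labelled Tnfrsf1α-/- with TNFα were at 0.66 and 3.65, a wider gap than the difference in wild type. Without replicate 1 or replicate 2 of that pair the wild-type difference, with its value of -0.98 unchanged, did pass (limma adjusted p = 0.000441 and 0.000335), as it did with only the wild-type groups in the model (0.0112) and with a pseudocount of 0.1 (-3.29 on that scale, 0.0316).

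The glutathione transferases of the alpha class, which also reduce lipid peroxides, showed the highest levels that were found only in treated wild type. Gsta5 was at 7.96 and 8.15 there and at most 0.18 elsewhere, and Gsta2 at 7.53 and 7.70 and at 0 in the other 10. Gsta3 was at 6.12 and 5.99 and at most 0.25 elsewhere. Gsta4, which acts on aldehydes from lipid peroxidation, was at 1.86 and 2.55 in untreated wild type and 6.46 and 6.55 with TNFα, against 1.02 to 2.71 in the 8 libraries with a knockout label (log2 difference 4.30, SE 0.33, limma adjusted p = 9.53e-06). None of these 4 genes overlapped between treated wild type and any other library, and 24.6% of all tested lines lay above all others in the same way. Gsta5, Gsta2 and Gsta3 passed the filter only through that pair, so for them this is a description. Gsta1 was on before treatment as well: it was at 6.23 and 6.82 in untreated wild type and rose modestly, to 7.72 and 7.84 (log2 difference 1.26, SE 0.41, limma adjusted p = 0.033). Alpha-class genes are near copies of each other and counting may split reads between them, so the single levels are uncertain; the same holds for the Gstm and Cyp4f genes.

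In the mu class, which conjugates epoxides and other electrophiles, Gstm1 had the highest level of any member but Gstp1. It was at 5.46 and 5.2 in untreated wild type, 9.53 and 9.75 with TNFα and 4.30 to 6.54 in the libraries with a knockout label (log2 difference 4.31, SE 0.56, limma adjusted p = 0.000318). Gstm3 was at 5.45 and 5.94 in treated wild type and at most 0.07 elsewhere. Gstm7 was at 4.98 and 4.78 in untreated and 7.57 and 7.73 in treated wild type (log2 difference 2.77, SE 0.21, limma adjusted p = 9.53e-06), and Gstm4 at 3.26 and 3.0 in untreated and 4.74 and 4.82 in treated wild type (log2 difference 1.65, SE 0.32, limma adjusted p = 0.00311). All 4 were highest in treated wild type with no overlap, a pattern that 24.6% of all tested lines had. Gstm3 passed the filter only through that pair.

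Of the theta class, which handles small halogenated compounds, Gstt1 was at 2.07 and 2.47 in untreated wild type and 5.58 and 5.63 with TNFα (log2 difference 3.33, SE 0.30, limma adjusted p = 3.26e-05), and Gstt3 at 0 and at 5.03 and 5.10. Gstt2 was at 1.17 and 1.11 in untreated and 4.13 and 3.85 in treated wild type (log2 difference 2.85, SE 0.87, limma adjusted p = 0.0256), but 1 library labelled Tnfrsf1α-/- with TNFα was higher, at 4.87. Gstk1, the kappa-class enzyme of mitochondria and peroxisomes, was at 6.81 and 7.05 in treated wild type and at most 0.21 elsewhere. Gstz1, an enzyme of tyrosine breakdown, was at 3.36 and 3.30 in untreated and 4.05 and 4.22 in treated wild type, and its difference did not pass (log2 difference 0.81, SE 0.30, limma adjusted p = 0.0555). Gstcd, a relative defined by its domain, lay between 1.61 and 2.40 in all 12 libraries and also did not pass (limma adjusted p = 0.374).

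Gstp1 and Gsto1, which like Gsta1 were high before treatment, did not pass with TNFα in wild type. Gstp1, the pi-class enzyme named above, was at 10.79 and 11.27 in untreated wild type and 11.21 and 11.58 with TNFα (log2 difference 0.37, SE 0.37, limma adjusted p = 0.443). Gsto1, an omega-class enzyme that reduces dehydroascorbate, was at 7.24 and 7.62 in untreated and 7.64 and 7.83 in treated wild type (log2 difference 0.31, SE 0.27, limma adjusted p = 0.378). The libraries of the 2 groups overlapped for Gstp1 and nearly touched for Gsto1. As a share of total FPKM both genes were lower with TNFα and did not overlap: Gstp1 made up 0.165% and 0.201% untreated and 0.12% and 0.147% treated, and Gsto1 0.014% and 0.0159% untreated and 0.0101% and 0.0109% treated. Gsto2 stayed between 0.52 and 1.59 in all 12 libraries and was below the filter for testing.

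Among the glucuronosyltransferases, Ugt1a5 was on in every library: 4.54 and 4.18 in untreated wild type and 5.49 and 5.37 with TNFα (log2 difference 1.07, SE 0.27, limma adjusted p = 0.0109). Ugt1a genes share most of their exons, so this level may hold reads of others. Ugt2b35 was at 4.38 and 3.93 in treated wild type and at 0 elsewhere, and Ugt2b10 and Ugt2b37, below the filter for testing, were also at 0 except in that pair, where Ugt2b10 was at 2.36 and 1.80 and Ugt2b37 at 1.57 and 1.23. The Ugt2b subfamily, which conjugates steroids and bile acids, was thus seen only in treated wild type among these 12 libraries. Of the sulfotransferases, Sult1b1, which acts on thyroid hormones and phenols, was at 4.63 and 4.22 in that pair and at 0 in the other 10. Sult5a1 was at 3.10 and 3.34 there, with 0.50 and 0.24 in 1 treated library of each knockout label and 0 in the rest. Sult1a1, the common phenol sulfotransferase of liver, did not exceed 0.54.

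Of the 29 calls for TNFα in wild type 23 held in every alternative run, the 14 genes at 0 in untreated wild type among them. Cyp2s1 did not pass without untreated wild-type replicate 1 (limma adjusted p = 0.0582) or without treated replicate 1 or 2 (0.0727 and 0.0765), and Gstt2 without any 1 of the 4 wild-type libraries (0.0772 to 0.127). Gsta1, Cyp20a1 and Ugt1a5 did not pass after median-ratio scaling (limma adjusted p = 0.252, 0.173 and 0.0579) or quantile normalization, and Gstm4 and Gstt2 not after the latter (0.0554 and 0.0855). Gsta1 was also lost without untreated wild-type replicate 1 (0.156), either treated wild-type replicate (0.114 and 0.14) or any untreated library with a knockout label (0.052 to 0.0531). Cyp20a1 was lost without untreated wild-type replicate 2 (0.177), either treated replicate (0.157 and 0.095) or any untreated library with a knockout label (0.0567 to 0.0617), and Ugt1a5 without untreated replicate 2 (0.0643) or treated replicate 1 (0.068).

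**Figure D3:**
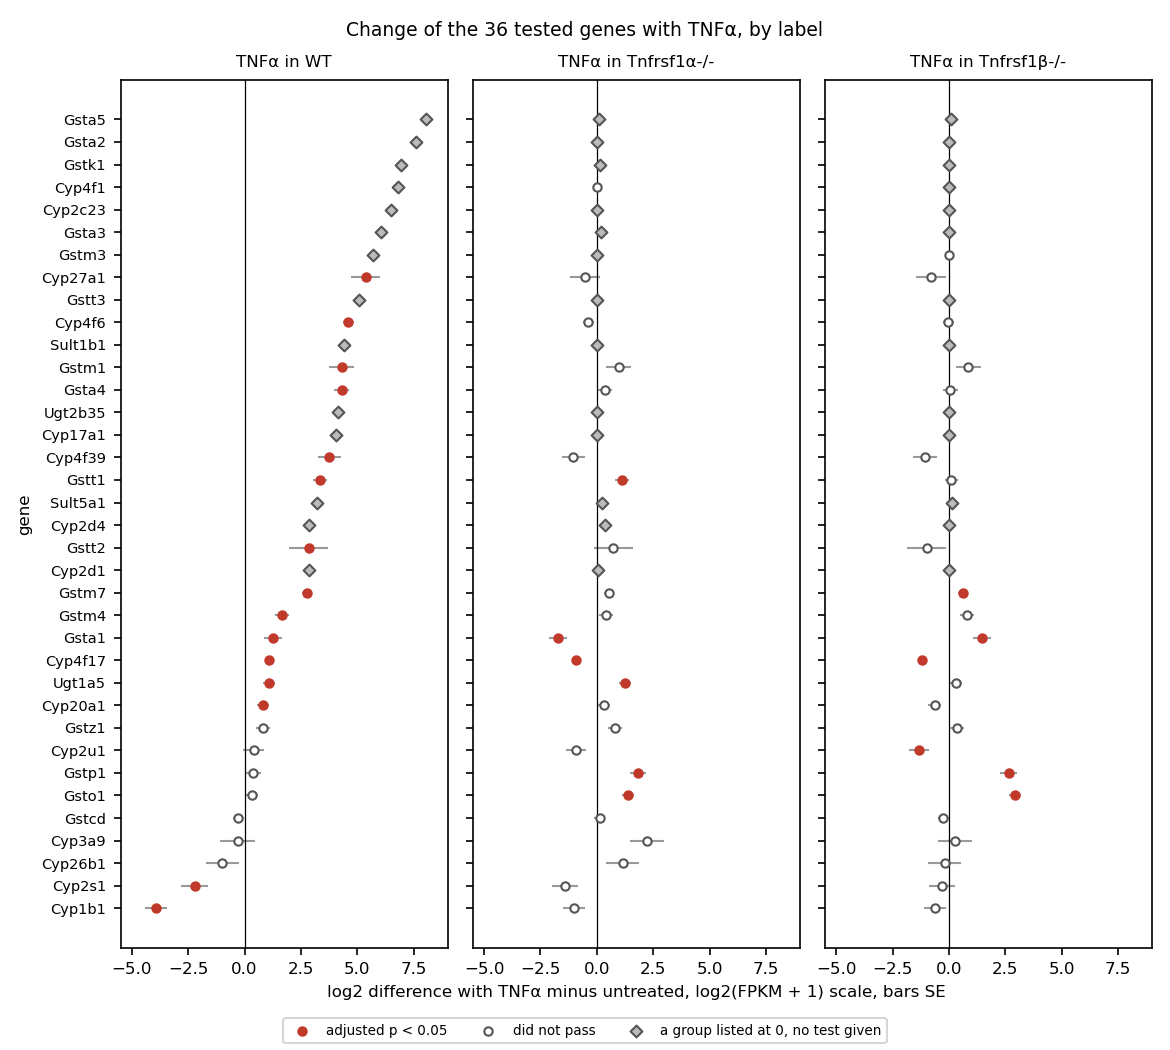
Log2 difference with TNFα minus untreated, on the log2(FPKM + 1) scale with its SE, of the 36 tested members (vertical axis) in wild type and under each knockout label. Red points passed an adjusted p of 0.05 and open points did not; grey diamonds mark a gene listed at 0 in both libraries of a compared group, where the difference depends on the pseudocount, is no fold and is given no test. Red points number 15 in wild type and 6 under each knockout label.

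With TNFα 6 of 36 members were called under each knockout label. Under Tnfrsf1α-/- 4 of 36 rose (Gstp1, Gsto1, Gstt1 and Ugt1a5) and 2 fell (Gsta1 and Cyp4f17), when 17.3% of all tested lines were called, 9.81% higher and 7.5% lower. Under Tnfrsf1β-/- 4 rose (Gstp1, Gsto1, Gsta1 and Gstm7) and 2 fell (Cyp2u1 and Cyp4f17), when 60.5% of all tested lines were called, 17.6% higher and 42.9% lower. The median log2 difference of all tested lines was -0.02 under the first label and -0.66 under the second. Of the lines called 56.7% were higher under the first label, 50.4% with median-ratio scaling and 34.8% with quantile normalization; under the second these shares were 29.1%, 50.9% and 44.8%. The 14 members listed at 0 in untreated wild type were below 1 under both labels and could hardly be called, so the members' counts are not read against these shares.

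Gstp1 was at 8.59 and 8.70 in the untreated pair labelled Tnfrsf1α-/- and at 9.95 and 10.99 with TNFα (log2 difference 1.83, SE 0.37, limma adjusted p = 0.012). It was at 8.73 and 8.61 in the untreated pair labelled Tnfrsf1β-/- and at 10.97 and 11.67 with TNFα (log2 difference 2.65, SE 0.37, limma adjusted p = 0.000643). The 4 untreated libraries were the lowest of all 12. Of the treated ones, 1 labelled Tnfrsf1α-/- stayed below every wild-type library and the other 3 reached the wild-type levels. Gsto1 was at 5.05 and 4.95 and, with TNFα, 6.67 and 6.06 under the label Tnfrsf1α-/- (log2 difference 1.37, SE 0.27, limma adjusted p = 0.0104), and at 4.62 and 4.68 and, with TNFα, 7.29 and 7.87 under the label Tnfrsf1β-/- (log2 difference 2.93, SE 0.27, limma adjusted p = 0.000111). Total FPKM was also lowest in these 4 untreated libraries, and its part in the difference was not tested. As a share of total FPKM, Gstp1 was at 0.0819% to 0.0937% in the 4 untreated libraries with a knockout label, 0.0756% and 0.139% under Tnfrsf1α-/- with TNFα and 0.186% and 0.277% under Tnfrsf1β-/- with TNFα. On that scale the treated libraries labelled Tnfrsf1α-/- lay on both sides of their untreated pair, and after quantile normalization the Gstp1 difference under that label was -0.058 (limma adjusted p = 0.891). The same held for the share of Gsto1, at 0.00687% and 0.00631% untreated and 0.0077% and 0.00451% treated under Tnfrsf1α-/-. Under Tnfrsf1β-/- its share was 0.0052% and 0.0055% untreated and 0.0144% and 0.0198% with TNFα, with no overlap.

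Gsta1 was called in opposite directions under the knockout labels. It was at 5.96 and 5.74 without and 3.74 and 4.53 with TNFα under Tnfrsf1α-/- (log2 difference -1.71, SE 0.41, limma adjusted p = 0.024), and at 5.24 and 5.31 without and 6.13 and 7.34 with TNFα under Tnfrsf1β-/- (log2 difference 1.46, SE 0.41, limma adjusted p = 0.0138). As a share of total FPKM it was at 0.013% and 0.0111% untreated and 0.000945% and 0.00151% treated under Tnfrsf1α-/-. Under Tnfrsf1β-/- it was at 0.00814% and 0.00864% untreated and 0.00643% and 0.0137% treated, so on that scale the treated libraries lay on both sides of the untreated pair. Cyp4f17 fell with TNFα under both labels, from 1.64 and 1.63 to 0.97 and 0.49 (log2 difference -0.91, SE 0.18, limma adjusted p = 0.00957) and from 1.46 and 1.43 to 0.17 and 0.33 (log2 difference -1.20, SE 0.18, limma adjusted p = 0.000777), whereas it rose in wild type. On the log2(FPKM + 1) scale untreated and treated libraries did not overlap for either gene under either label. Cyp2u1, a fatty acid hydroxylase of brain and thymus, fell under Tnfrsf1β-/-, from 2.62 and 2.63 to 1.30 and 1.31 (log2 difference -1.32, SE 0.45, limma adjusted p = 0.031). Smaller rises were those of Gstt1 (log2 difference 1.13, SE 0.30, limma adjusted p = 0.0381) and Ugt1a5 (log2 difference 1.23, SE 0.27, limma adjusted p = 0.0159) under Tnfrsf1α-/- and of Gstm7 under Tnfrsf1β-/- (log2 difference 0.60, SE 0.21, limma adjusted p = 0.0367).

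None of the 6 calls under Tnfrsf1α-/- held in every alternative. With only the groups compared in the model limma called 0 of 36, when 4.81% of all tested lines were called. When an untreated replicate of that label was left out, which leaves a group of 1, fewer members and fewer of all tested lines were called. Without treated replicate 1 more of both were called. Without treated replicate 2 Cyp27a1 was called as higher (0.78, limma adjusted p = 0.0243), the opposite sign to the value from both (-0.53, limma adjusted p = 0.576). Gstt1 was also lost without any of the other wild-type treated or Tnfrsf1β-/- libraries (limma adjusted p = 0.0524 to 0.0776) and without treated replicate 2 of its own label (0.105). Under Tnfrsf1β-/- the calls of Gstp1, Gsto1 and Cyp4f17 held in all alternatives. Without both treated libraries labelled Tnfrsf1α-/- 13 members were called there, when 73.9% of all tested lines were called. Fewer members, and fewer of all tested lines, were called without untreated replicate 1 or 2 or treated replicate 2 of the label Tnfrsf1β-/-. Without treated replicate 2 Gsta1 had a difference of 0.86 (limma adjusted p = 0.0982), Gstm7 of 0.40 (0.202) and Cyp2u1 of -1.32 (0.109). Without untreated replicates 1 and 2 in turn the adjusted p was 0.0633 and 0.0561 for Gsta1, 0.166 and 0.0954 for Gstm7, and 0.102 and 0.107 for Cyp2u1. Cyp2u1 was lost too without treated replicate 1 of that label (0.0934) or either treated wild-type library (0.0543 and 0.0544), and its difference shrank to -0.76 with median-ratio scaling (0.15) and -0.30 with quantile normalization (0.489). Gstm7 was also lost without either untreated library labelled Tnfrsf1α-/- (0.0599 and 0.06).

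**Figure D4:**
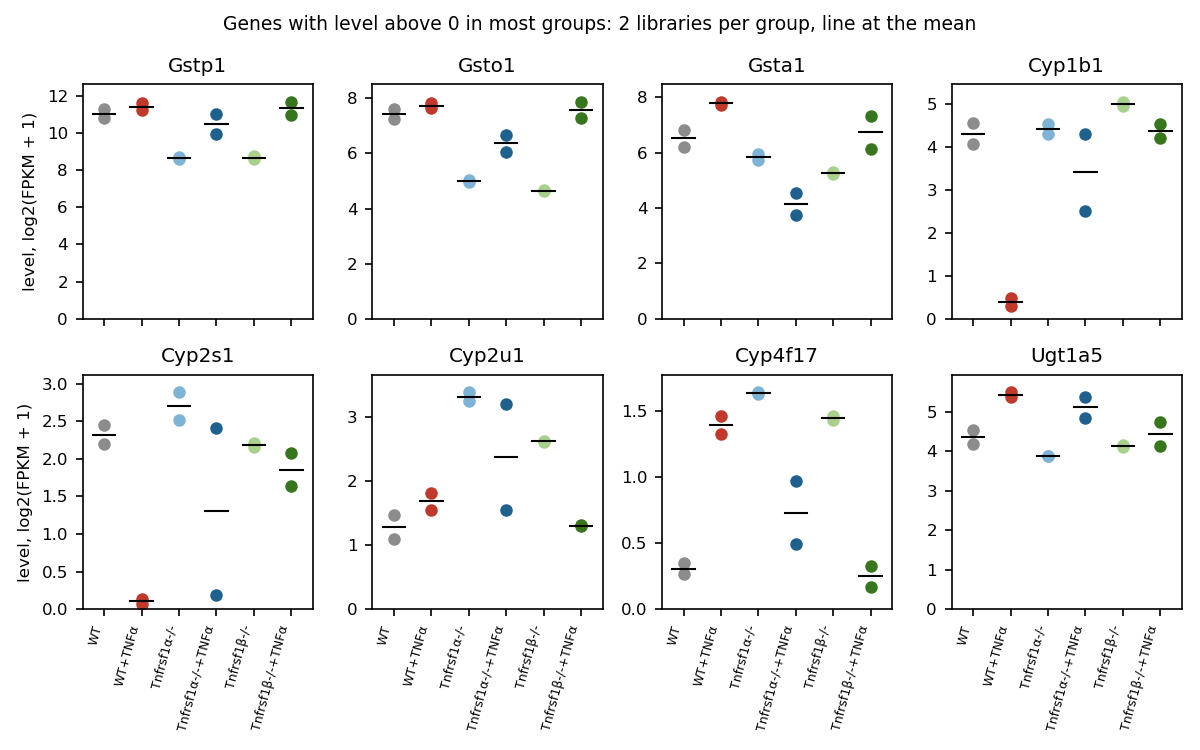
Level, log2(FPKM + 1), of 8 members in the 6 groups (horizontal axis); points are the 2 libraries of a group and lines their means. Gstp1 and Gsto1 are lowest in the untreated libraries with a knockout label, Cyp1b1 is lowest in wild type with TNFα, and Cyp4f17 is high in treated wild type and in untreated libraries with a knockout label.

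The response to TNFα was then compared between each knockout label and wild type, as the difference of the 2 differences. It differed for 24 of 36 members under the label Tnfrsf1α-/-, 1 higher and 23 lower than in wild type, when 34.8% of all tested lines differed. Under the label Tnfrsf1β-/- it differed for 28, 3 higher and 25 lower, when 64.5% of all lines did. The 14 members listed at 0 in untreated wild type had to show a lower response and are 14 of the lower ones in each comparison; of the other 22 members 1 was higher and 9 lower under the first label, and 3 higher and 11 lower under the second. Both comparisons use the same 4 wild-type libraries. Of all lines called 36.9% were higher in the first, against 52.5% with median-ratio scaling and 48.0% with quantile normalization, and 26.8% in the second, against 50.2% and 47.5%. Among the 22, the responses of Cyp4f6, Cyp4f17, Cyp4f39, Gsta4, Gstm1, Gstm7 and Gstt1 were lower under each label. Cyp4f6 passed the filter only through treated wild type, so its calls here are a description. Gstt1 did not pass after quantile normalization under Tnfrsf1α-/- (-1.15, limma adjusted p = 0.138, from -2.21) or Tnfrsf1β-/- (-1.27, 0.0778, from -3.23). Under Tnfrsf1β-/- Gstm7 did not pass with median-ratio scaling (-0.92, limma adjusted p = 0.0688, from -2.17), nor Gstm1 with quantile normalization (-2.02, 0.0522, from -3.46). Cyp27a1 rose in wild type and its response was lower under Tnfrsf1α-/- (difference of differences -5.89, SE 0.93, limma adjusted p = 0.00177) and under Tnfrsf1β-/- (-6.15, SE 0.93, limma adjusted p = 0.000641). For Cyp1b1, which fell in wild type, the response was higher under both (difference of differences 2.92, SE 0.69, limma adjusted p = 0.0129 and 3.30, SE 0.69, 0.00333), although without treated wild-type replicate 2 the first did not pass (2.83, limma adjusted p = 0.0552), nor did Gstm1 (-3.23, 0.0546). The Gstp1 and Gsto1 responses were higher under Tnfrsf1β-/- (difference of differences 2.28, limma adjusted p = 0.0051 and 2.63, 0.000517), Gstp1 not after quantile normalization (0.95, 0.0733). Those under Tnfrsf1α-/- did not pass (difference of differences 1.46 and 1.06, limma adjusted p = 0.0595 and 0.06). Gstp1 did pass there with the replicate block (0.023) and without treated Tnfrsf1α-/- replicate 1 (0.00486). Gsto1 did with median-ratio scaling (0.0409), with quantile normalization (0.0191), and without untreated wild-type replicate 1 (0.0476), treated Tnfrsf1α-/- replicate 2 (0.0123) or treated Tnfrsf1β-/- replicate 1 or 2 (0.0476 and 0.0477).

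Without TNFα 4 and 6 members differed from wild type under the knockout labels. Under Tnfrsf1α-/- 2 of 36 were higher (Cyp2u1 and Cyp4f17) and 2 lower (Gstp1 and Gsto1), when 53.7% of all tested lines were called, 36.7% higher and 17.0% lower. Under Tnfrsf1β-/- the same 2 were higher and 4 lower (Gstp1, Gsto1, Gsta1 and Gsta4), when 54.4% of all lines were called, 36.9% higher and 17.5% lower. The median log2 difference of all tested lines was 0.48 and 0.47. Of the lines called 68.3% and 67.8% were higher, 51.0% and 51.4% with median-ratio scaling, and 54.1% and 54.0% with quantile normalization. The 2 comparisons share the untreated wild-type libraries, so their values stand side by side and are not independent. The 14 members listed at 0 in untreated wild type are among the 36 and could hardly be called. Without both treated libraries labelled Tnfrsf1α-/- 7 and 11 members were called. At an unadjusted p under 0.05 by limma there were then 8 and 13 of the 36, beside 71.3% and 71.5% of all tested lines.

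Gstp1 was lower under Tnfrsf1α-/- (log2 difference -2.38, SE 0.37, limma adjusted p = 0.00116) and under Tnfrsf1β-/- (log2 difference -2.36, SE 0.37, limma adjusted p = 0.00124). After quantile normalization the differences were -0.67 and -0.53 and did not pass (limma adjusted p = 0.0781 and 0.152). Gsto1 was lower under both labels in every alternative, with values of -2.43 (SE 0.27, limma adjusted p = 0.000306) and -2.78 (SE 0.27, 0.000161). Cyp2u1 was at 1.47 and 1.10 in untreated wild type, at 3.25 and 3.39 under the label Tnfrsf1α-/- (log2 difference 2.04, SE 0.45, limma adjusted p = 0.00537) and at 2.62 and 2.63 under Tnfrsf1β-/- (log2 difference 1.34, SE 0.45, limma adjusted p = 0.0324). Cyp4f17 was higher under Tnfrsf1α-/- (log2 difference 1.33, SE 0.18, limma adjusted p = 0.000629) and under Tnfrsf1β-/- (log2 difference 1.14, SE 0.18, limma adjusted p = 0.00116). For both P450 genes the 4 untreated libraries with a knockout label lay above the untreated wild-type pair. The Tnfrsf1β-/- values of Gsta1 (log2 difference -1.25, SE 0.41, limma adjusted p = 0.0302) and Gsta4 (log2 difference -0.96, SE 0.33, limma adjusted p = 0.0365) did not pass without untreated wild-type replicate 2 (limma adjusted p = 0.179 and 0.217), and Cyp2u1 under that label did not without the same library (0.156). All 3 were also lost without either treated wild-type replicate (0.055 to 0.0599) or either untreated replicate of the label Tnfrsf1β-/- (0.0847 to 0.176), so that 3 members were called in each of these cases, and Cyp2u1 without untreated wild-type replicate 1 (0.0557). With quantile normalization Gsta1 was at -0.99 (0.0612) and Cyp2u1 at 0.41 (0.356), and with median-ratio scaling Cyp2u1 was at 0.95 (0.0821). As a share of total FPKM Gsta1 was not lower under Tnfrsf1β-/- (0.00814% and 0.00864%) than in untreated wild type (0.0069% and 0.00911%). Leaving out either untreated Tnfrsf1α-/- library lost Gsta4 (0.0596 and 0.0597) and Cyp2u1 (0.0508 and 0.0509). Over all 12 libraries the 4 untreated ones with a knockout label lay below the other 8 for 3 of the 36 tested members, as for 13.0% of all tested lines, and above them for 0, as 20.3% of all lines did.

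The 2 libraries labelled Tnfrsf1α-/- with TNFα disagreed on several members. Replicate 1 had Cyp27a1 at 2.63, Cyp4f39 at 1.91 and Cyp2s1 at 2.42, where replicate 2 had 0, 0 and 0.19. Replicate 2 had Cyp3a9 at 3.94, Cyp26b1 at 3.65, Gstt2 at 4.87 and Cyp4v3 at 2.99, where replicate 1 had 0.85, 0.66, 1.52 and 0.06. Cyp19a1, the aromatase that makes oestrogens, and Cyp46a1, a cholesterol hydroxylase best known from brain, reached 1 only in replicate 2, at 1.22 and 1.75. The cause was not tested.

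Other genes of the pathway were counted from lists of regulators, electron donors, further oxidising enzymes, cofactor and conjugating enzymes, and transporters. With TNFα in wild type 11 of 15 regulators rose and 2 fell (Ahr and Ahrr), beside the 31.9% of all tested lines that rose and 15.3% that fell; listed genes at 0 in untreated wild type passed the filter only through the treated pair, so these counts are a description. Among those that rose, Nr1i2, the receptor that senses drugs and steroids, was at 3.32 and 3.13 with TNFα, and Hnf4a, a regulator of hepatocyte genes, at 5.22 and 5.13. Both were listed at 0 in untreated wild type. Nfe2l2, which drives antioxidant genes, was at 5.12 and 4.94 in untreated and 5.45 and 5.07 in treated wild type and did not pass (limma adjusted p = 0.567). Of 6 electron donors Por and Fdx1 rose, Por from 5.2 and 4.68 to 7.42 and 7.38 (log2 difference 2.46, SE 0.26, limma adjusted p = 8.17e-05). Of 14 other oxidising and hydrolysing enzymes 9 rose and 2 fell (Ephx2 and Xdh), with Ephx1, which opens epoxides made by P450 enzymes, at 2.08 and 1.55 in untreated and 8.42 and 8.44 in treated wild type (log2 difference 6.62, SE 0.46, limma adjusted p = 4.87e-06). Adh1, the liver alcohol dehydrogenase, was at 8.37 and 8.35 with TNFα, and Fmo1, a flavin oxidase, at 7.90 and 7.60, and both were at 0 without it. Of 18 cofactor and other conjugating enzymes 9 rose and 2 fell (Nnmt and Ugp2), and of 5 tested transporters 4 rose, among them Abcc2, which exports conjugates into bile, at 0 untreated and 4.03 and 3.71 with TNFα. Slco1a1 and Slco1b2, importers of mature hepatocytes, were at 0 in all 12 libraries.

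The same lists were counted under the knockout labels, where 17.3% of all tested lines were called with TNFα under Tnfrsf1α-/-, 60.5% under Tnfrsf1β-/-, and 53.7% and 54.4% without TNFα. With TNFα under Tnfrsf1α-/- 1 regulator fell (Ahr), 2 electron donors rose (Cyb5a and Cyb5r3), 1 oxidising enzyme rose (Nqo1) and 2 fell (Ephx1 and Ephx2), 1 cofactor or conjugating enzyme fell (Ugdh), and 1 transporter fell (Abcb1a). Under Tnfrsf1β-/- 3 regulators fell (Ahr, Arnt and Nfe2l2), 1 electron donor rose (Fdx1), 1 oxidising enzyme rose (Adh4) and 3 fell, 3 cofactor or conjugating enzymes rose and 3 fell, and 3 transporters fell. Without TNFα 4 regulators were higher under Tnfrsf1α-/- and 3 under Tnfrsf1β-/-, and 1 and 2 electron donors were lower. Of the oxidising enzymes 2 were higher and 2 lower under each label, of the cofactor list 2 higher and 3 lower under the first and 3 and 3 under the second, and 3 transporters were higher under each. Ahr was at 5.80 and 5.66 in the untreated pair labelled Tnfrsf1α-/-, above untreated wild type (log2 difference 2.89, SE 0.30, limma adjusted p = 0.000238), as were the 4.88 and 4.95 of the untreated pair labelled Tnfrsf1β-/- (log2 difference 2.07, SE 0.30, limma adjusted p = 0.000929). Nfe2l2 was likewise higher, at 7.5 and 7.27 under the first label (log2 difference 2.36, SE 0.31, limma adjusted p = 0.000627) and 6.47 and 6.49 under the second (log2 difference 1.45, SE 0.31, limma adjusted p = 0.00491). Gstp1, Gsto1 and total FPKM were lowest in these untreated libraries. A relation between these levels was not tested. Gss, which makes glutathione, was at 5.76 and 5.87 in untreated wild type and lower at 4.24 and 4.23 under Tnfrsf1α-/- (log2 difference -1.58, SE 0.24, limma adjusted p = 0.00115) and 4.02 and 4.11 under Tnfrsf1β-/- (log2 difference -1.75, SE 0.24, limma adjusted p = 0.000777).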

How the data were processed

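RNA was measured in 12 libraries of rat hepatic progenitor cells, 6 groups of 2, as Illumina TruSeq libraries of total RNA, per the labels' protocols. The authors deposited 1 table of FPKM values per gene on a log2 scale. The log2(FPKM + 1) scale is read from the values, which run from 0 to 16.8; which aligner, quantifier and build were used is not given in the sources used here. Without counts the depth per library is unknown, so no counting interval is given, and 2 libraries a group limit the precision.

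Group means of the deposited values were compared in 7 contrasts with limma 3.58.1 (R 4.3.3; trended empirical Bayes, all 12 libraries in 1 model, no block) over 11860 lines with a mean FPKM of at least 1 and a symbol. P-values were adjusted by Benjamini-Hochberg over all of these lines, with a threshold of 0.05. The procedure was tested on simulated data. Differences are on the log2(FPKM + 1) scale (pseudocount 1) and understate changes of low genes. Of 22730 lines 346 had no symbol and were left out.

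Any member may be named. Values in every library go to the member with the highest mean in each role or subfamily and to up to 6 members with the largest rise and 6 with the largest fall per contrast. Some genes of the pathway lists are not reported here. The members, gene lists and tests were chosen with earlier results of these data known. Alternatives were a pseudocount of 0.1, 2 other filters, median-ratio scaling, quantile normalization, a replicate block, only the groups compared, and leaving out libraries. Python 3.11.15, pandas 2.3.3, NumPy 2.4.6 and matplotlib 3.10.9 were also used.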

Additional observations from a re-analysis of the deposited data

Results flagged for a closer look

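The response to TNFα differed between knockout-labelled and wild-type cells in many members, by limma's test of the difference of the 2 responses (24 members for Tnfrsf1α-/- and 28 for Tnfrsf1β-/-). In each case 14 of these were listed at 0 in untreated wild type, entered the test only through treated wild type and had to differ, so no value is given for them. Cyp4f6 also entered the test only through treated wild type, so its values below are a description. The values below are differences of differences on the log2(FPKM + 1) scale. For Tnfrsf1α-/- minus wild type the value was 2.92 for Cyp1b1, -5.89 for Cyp27a1, -4.98 for Cyp4f6, -4.80 for Cyp4f39, -3.93 for Gsta4, -3.35 for Gstm1 and -2.97 for Gsta1. For Tnfrsf1β-/- minus wild type it was 3.3 for Cyp1b1, 2.63 for Gsto1, 2.28 for Gstp1, -6.15 for Cyp27a1, -4.84 for Cyp4f39, -4.64 for Cyp4f6, -4.25 for Gsta4, -3.85 for Gstt2 and -3.46 for Gstm1. Gstt2 did not pass without either treated wild-type replicate, among others (limma adjusted p = 0.0519 to 0.172 over the alternatives that ended the call). Hepatocyte markers were high in the same treated wild-type libraries, and their part in these values was not tested. Groups of 2 allow no test for a single outlying library.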

How the results depend on the processing

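Of 103 calls of members over the 7 contrasts, 73 held in every alternative run. The 14 members listed at 0 in untreated wild type had to be called with TNFα in wild type and in both differences of response. All of those calls are among the 73, as are those of Cyp4f6, which also passed the filter only through treated wild type. That number therefore overstates how well the other calls held. The number of members called with TNFα in wild type was 24 to 32 when single libraries were left out. The ranges were 0 to 21 for TNFα under Tnfrsf1α-/-, 3 to 13 under Tnfrsf1β-/-, 22 to 30 and 26 to 32 for the differences of response under Tnfrsf1α-/- and Tnfrsf1β-/-, and 4 to 7 and 3 to 11 for the untreated comparisons. The share of all tested lines called moved in these leave-out runs too. With only the groups compared in the model, limma called 0 members for TNFα under Tnfrsf1α-/- (5 at an unadjusted p under 0.05), beside 4.81% of all tested lines. For untreated Tnfrsf1α-/- it called 8, beside 55.8%. Quantile normalization gave 12 members for TNFα under Tnfrsf1β-/- (54.4% of all tested lines) and 7 for untreated Tnfrsf1α-/- (51.5%). Without both treated Tnfrsf1α-/- libraries these were 13 (73.9% of all tested lines) and 7, and 11 for untreated Tnfrsf1β-/-. For the response under Tnfrsf1α-/- minus wild type, 38 of 55 members were called with no filter, beside 29.2% of all lines in that run. With FPKM of at least 1 in 2 libraries 37 of 50 were called, beside 37.3%. Members listed at 0 in untreated wild type are part of these counts. Signs reversed after quantile normalization for Gstp1 under Tnfrsf1α-/- with TNFα (-0.058), Cyp4f6 under Tnfrsf1β-/- with TNFα (0.64), and Gstcd (0.87 for TNFα under Tnfrsf1β-/-, -0.89 and -0.76 untreated), and for Cyp27a1 with TNFα under Tnfrsf1α-/- without treated replicate 2 (0.783, against -1.842 without replicate 1); the cause was not tested.

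With the replicate block Gstp1 gained a call for the response under Tnfrsf1α-/- minus wild type (limma adjusted p = 0.023, against 0.0595 without it). The members called then numbered 29, 6, 7, 25, 28, 4 and 6 in the 7 contrasts. In the first 6 of these 49.7%, 22.6%, 61.7%, 38.5%, 66.6% and 55.6% of all tested lines were called. Replicate numbers were not taken as pairs: of 15 pairs of groups, 9 had correlated deviations over 0.1 (range -0.169 to 0.244). Depth is unknown, and low levels near 0 cannot be told from no expression.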
